A study of Homo sapiens with 12 samples.

Results

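The 31 genes described here encode the proteins that carry glucose into a cell, convert it to pyruvate and lactate, and release the lactate again, together with the enzymes that set the level of fructose-2,6-bisphosphate. They were chosen by name, from 14 steps of the pathway, and are 31 of the 58037 genes in the count table of an RNA-seq experiment in HCT116 cells. HCT116 is a human epithelial colorectal carcinoma cell line, wild type in the samples used. The cells were given DMSO, the solvent control, 10 μM Nutlin-3a, 20 nM NVP-2, or Nutlin-3a and NVP-2 together, each for 8 h and with 3 samples per condition. Nutlin-3a activates p53 by keeping MDM2 from binding it, and NVP-2 inhibits CDK9, the kinase of P-TEFb. All 12 columns of the table were identical, with 0 of 58037 genes differing between any of them. The members are therefore described in 1 distinct profile of 22720718 counts, whose treatment is not known, and nothing could be compared between conditions or between replicates.

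Glycolysis splits glucose into pyruvate and yields ATP and NADH without using oxygen. Cells that reduce the pyruvate to lactate recover the NAD+ that the pathway needs, and many tumour cells do so even where oxygen is present. Most steps are served by several genes whose products catalyse the same reaction but differ in tissue distribution and regulation, such as forms that are typical of muscle, liver, brain or testis. Which of these isoforms a cell line transcribes is the question that the profile can address.

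Levels are given as RPKM, that is, the CPM value (counts scaled to the total of the column) divided by the summed length of a gene's merged exons in kilobases, since only values per length can be compared between genes. Intervals are 95% Wilson confidence intervals and cover counting error only. Each interval was computed from the count behind the value, and with a single distinct profile there is no replicate from which a biological error could be taken. A gene was called expressed at an RPKM of at least 1, the limit used in the study. At this limit 24 of the 31 members were expressed, against 44.6% of the 19629 protein-coding genes. The members held 461179 counts, or 2.03% of the column (2.02 to 2.04%). Their median was 16.8 RPKM, where the median of all protein-coding genes was 0.589 RPKM and that of the expressed ones 6.03 RPKM. The median member stood at the 89.1 percentile of protein-coding genes.

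The epithelial identity of the profile was visible in its markers. All 5 epithelial markers examined were expressed, with *KRT8*, a keratin of simple epithelia, at 514 RPKM. None of the 3 leukocyte, 3 fibroblast, 3 endothelial, 2 hepatocyte or 3 germ cell markers reached 1 RPKM, and the germ cell markers were all at 0 counts. The fibroblast marker *COL1A1* (0.972 RPKM, 0.846 to 1.12) and the leukocyte marker *CD14* (0.722 RPKM, 0.496 to 1.05) had intervals that spanned this limit. With the canonical transcript length *COL1A1* was above it, at 1.48 RPKM. Among the muscle markers *ACTA1* was at 1.09 RPKM (0.846 to 1.41), an interval that also spans the limit, and the others were below it. Among the neuronal markers *SYT1* was at 2.93 RPKM, while *RBFOX3* was listed at 0 and *SNAP25* had 1 count. The mitochondrial genome took 10.4% of the counts.

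Most of the members' counts lay on 1 isoform per step, but the share of that isoform differed between steps. The leading isoform is defined as the member of a step with the highest RPKM, so it lies above the others by construction. *GPI* and *TPI1* lead as the only listed genes of their steps. The 14 leading isoforms held 90.5% of the members' counts and lay between 6.70 and 2110 RPKM, with a median of 131.5 RPKM. Of the 17 other isoforms 10 were expressed, and their median was 1.29 RPKM. The leading isoform held more than 97% of the step's RPKM in 7 of the 12 steps that had more than 1 listed gene. In the remaining 5 steps, hexokinase, phosphofructokinase, lactate dehydrogenase, monocarboxylate transport and the fructose-2,6-bisphosphate enzymes, it held less than 75%. *GAPDH*, *ENO1*, *PKM* and *LDHB* were the 4 members with the most counts, and they held 64.96% of the counts of all members.

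**Figure D1:**
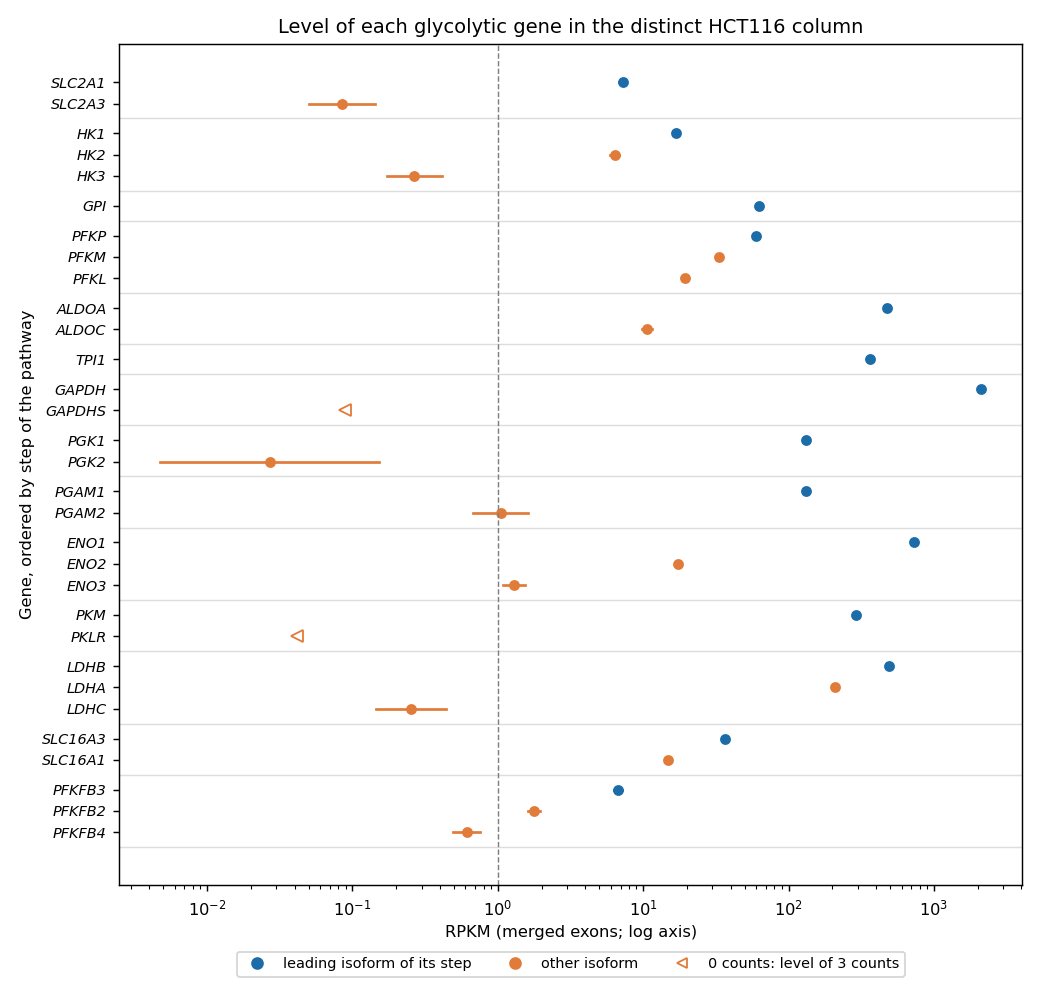
RPKM (log axis) of the 31 genes, grouped by step from glucose uptake at the top to the fructose-2,6-bisphosphate enzymes at the bottom, with 95% counting intervals. Filled points are measured values, open triangles mark the level of 3 counts, the limit set for the 2 genes at 0 counts, and the dashed line is 1 RPKM. All 14 leading isoforms, picked as the highest of their step by RPKM, lie to the right of the line. Of the 17 other isoforms, 7 lie to the left of it.

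Across the 10 enzymatic steps from glucose to pyruvate the summed level was uneven. Hexokinase was the lowest step with 23.4 RPKM and glyceraldehyde-3-phosphate dehydrogenase the highest with 2110 RPKM, a ratio of 90.2. The first enzymes of the pathway were the lower ones, with 62.7 RPKM for glucose-6-phosphate isomerase and 112.9 RPKM for phosphofructokinase. From aldolase on, every step was higher, from 131.1 RPKM for phosphoglycerate kinase to 745 RPKM for enolase, besides the dehydrogenase itself. The order at the low end depended on the length used. With the length of the canonical transcript instead of the merged exons, phosphofructokinase (316 RPKM) came out above phosphoglycerate mutase (187 RPKM) and phosphoglycerate kinase (148 RPKM), and glucose-6-phosphate isomerase (162 RPKM) above phosphoglycerate kinase, while hexokinase (38.97 RPKM) remained the lowest and the dehydrogenase (3935 RPKM) the highest step.

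Glucose enters the cell through facilitative transporters of the SLC2A family. *SLC2A1*, which encodes the widely used transporter GLUT1, had 1084 counts and 7.21 RPKM (6.80 to 7.66). *SLC2A3*, which encodes GLUT3, the high-affinity form known from neurons, had 14 counts and 0.0850 RPKM (0.0506 to 0.143). *SLC2A1* thus held 98.7% of the counts of this step (97.9 to 99.2%) and 98.8% of its RPKM. Of the 3753 stretches of 75 bases, the length of the reads, in the canonical *SLC2A3* transcript, 13.3% also occur in *SLC2A14*, its close relative, which was listed at 0. All 9 further transporters of the family that were examined were lower than *SLC2A1*, the highest of them being *SLC2A8* at 1.57 RPKM and *SLC2A6* at 1.47 RPKM. *SLC2A13* (0.571 RPKM), *SLC2A5* (0.266 RPKM) and *SLC2A4* (0.143 RPKM) were below the limit of expression and above *SLC2A3*. With the 9 further transporters counted in, *SLC2A1* held 63.3% of the summed RPKM. This is a share of the listed genes of the family and not of glucose uptake, since what each of them carries was not examined.

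Hexokinases phosphorylate glucose and so trap it in the cell. *HK1*, the form found in most tissues, led with 2617 counts and 16.8 RPKM (16.1 to 17.4). *HK2*, the insulin-responsive form of muscle and fat that many tumours express, had 857 counts and 6.37 RPKM (5.96 to 6.81), and *HK3* had 20 counts and 0.266 RPKM (0.173 to 0.411). In shares, *HK1* held 74.9% of the counts (73.4 to 76.3%) and 71.6% of the RPKM, and *HK2* held 24.5% of the counts and 27.2% of the RPKM. The share of *HK1* was 82.1% with canonical transcript lengths, because the merged exons of *HK1* (6876 bases) are much longer than its canonical transcript (3602 bases), which is not so for *HK2* (5918 and 5626 bases). *ADPGK*, which uses ADP instead of ATP to phosphorylate glucose, reached 8.38 RPKM (7.90 to 8.88) and so lay above *HK2* and *HK3* and below *HK1*. *HKDC1*, a further hexokinase, was at 0.292 RPKM, next to *HK3*.

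*GPI*, the only gene for the isomerase that turns glucose-6-phosphate into fructose-6-phosphate, had 15220 counts and 62.7 RPKM (61.7 to 63.7). Its merged exons sum to 10680 bases, the longest of any member, and its canonical transcript to 4125 bases, which gave 162 RPKM.

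Phosphofructokinase commits fructose-6-phosphate to glycolysis and works as a tetramer of subunits from 3 genes named for platelet, muscle and liver. All 3 were expressed. *PFKP* led with 10630 counts and 60.2 RPKM (59.0 to 61.3), followed by *PFKM* with 5483 counts and 33.3 RPKM (32.4 to 34.2) and *PFKL* with 3938 counts and 19.4 RPKM (18.8 to 20.0). Their intervals do not overlap. *PFKP* held 53.0% of the counts (52.3 to 53.7%) and 53.3% of the RPKM, *PFKM* 27.3% and 29.5%, and *PFKL* 19.6% and 17.2%. This was the step with the lowest share for its leading isoform, and the order of the 3 genes was the same by counts and by each of the lengths tried.

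Aldolase splits fructose-1,6-bisphosphate into the triose phosphates. *ALDOA*, the muscle and general form, had 41708 counts and 479 RPKM (475 to 484), and *ALDOC*, the brain form, had 632 counts and 10.7 RPKM (9.85 to 11.5). *ALDOA* held 98.5% of the counts and 97.8% of the RPKM, a ratio of 45.0 between the levels. *TPI1*, the single gene for triosephosphate isomerase, which interconverts the products of aldolase, had 22149 counts and 361 RPKM (356 to 366).

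Glyceraldehyde-3-phosphate dehydrogenase makes the NADH of the pathway. *GAPDH* was the highest member with 114876 counts and 2110 RPKM (2098 to 2122), and ranked 15 of the 19629 protein-coding genes by RPKM and 11 by count. *GAPDHS*, the form of sperm, had 0 counts. The limit for a count of 0 was set at 3 counts in the column, or 0.132 CPM, which is a share of 0.00261% of the step's counts. Against this limit *GAPDH* was at least 23637-fold higher per length.

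Phosphoglycerate kinase makes the first ATP of the pathway. *PGK1*, an X-linked gene used in all tissues, had 16194 counts and 131 RPKM (129 to 133), and *PGK2*, an intronless gene expressed in testis, had 1 count. That single count is 0.00618% of the counts of the step (0.00109 to 0.0350%) and 0.0206% of its RPKM (0.00365 to 0.117%). Of all pairs of a leading isoform and another member of its step, these have the most similar coding sequences. They are identical in 85.5% of 1251 aligned bases, and their longest identical run is 49 bases, shorter than a read. The first 60 coding bases are shown in hg38 for *PGK1* (chrX:78104341-78104400, plus strand) and *PGK2* (chr6:49787128-49787187, minus strand), with capitals where *PGK2* differs from *PGK1*, to show that the genes can be told apart by their reads.
PGK1: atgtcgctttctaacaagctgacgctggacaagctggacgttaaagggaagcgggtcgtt
PGK2: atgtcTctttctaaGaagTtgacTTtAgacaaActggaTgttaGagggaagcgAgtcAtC
In this stretch 12 of the 60 bases differ.

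**Figure D2:**
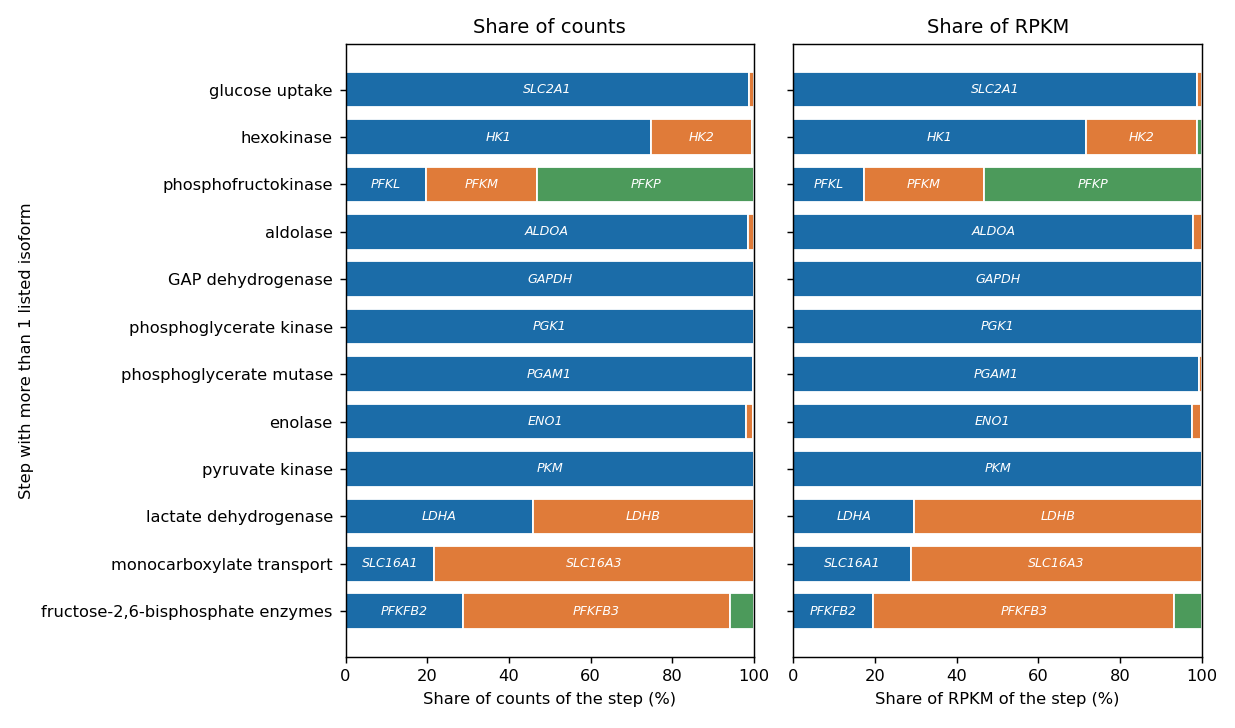
Share of each step's counts (left) and RPKM (right), in percent, held by the listed isoforms of the 12 steps with more than 1 gene, with each bar adding to 100%. Names are written on segments above 9%. In 7 steps 1 segment fills nearly the whole bar, the other 5 are divided, and the share of *LDHB* is 54.1% of the counts and 70.4% of the RPKM.

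Phosphoglycerate mutase shifts the phosphate group that pyruvate kinase will later transfer to ADP. *PGAM1*, the brain and general form, had 7613 counts and 131.9 RPKM (129.0 to 134.9), and *PGAM2*, the muscle form, had 20 counts and 1.05 RPKM (0.681 to 1.63). *PGAM1* held 99.7% of the counts (99.6 to 99.8%) and 99.2% of the RPKM. *PGAM2* was the only member whose interval spanned the limit of 1 RPKM.

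The count of *PGAM1* has a limit of its own, because most of its transcript is not unique in the genome. Of the 1728 stretches of 75 bases in its canonical transcript, 1515 (87.7%) also occur elsewhere in hg38 without a mismatch. The matches include a pair of processed pseudogenes on chromosome 12 that carry no symbol in the annotation. ENSG00000186076 (chr12:93640822-93641586, minus strand) differs from the *PGAM1* coding sequence at 1 of 762 bases, and ENSG00000216285 (chr12:104030779-104031543, plus strand) at 2 of them. The second lies within the span of *GLT8D2*, which holds 1187 of the matching stretches, more than the 558 in the annotated pseudogene itself. The table assigned 3682 counts to the first and 4429 to the second of these pseudogenes. With *PGAM1P8*, a further pseudogene with 59 counts, these copies held 8170 counts, which is 107% of the count of *PGAM1* itself and 51.8% of the sum of both. How the authors' counting treated reads that fit several places is not given in the sources used here, so the division of these reads between the gene and its copies is uncertain.

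The bases that tell the copies from the gene are few enough to print. Each of the following lines gives 41 bases around 1 of these positions, 5′ to 3′ on the coding strand, with the differing base in capitals. The first pair compares *PGAM1* (in 2 exons, between 97430639 and 97430980 of chromosome 10, plus strand) with ENSG00000186076 (chr12:93641147-93641187, minus strand) at coding position 420, counted from the A of the start codon.
PGAM1: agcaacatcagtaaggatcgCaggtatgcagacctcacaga
ENSG00000186076: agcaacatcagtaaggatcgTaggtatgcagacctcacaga
The second pair compares *PGAM1* (chr10:97430541-97430581, plus strand) with ENSG00000216285 (chr12:104031080-104031120, plus strand) at coding position 322, and the third the same genes (chr10:97432447-97432487 and chr12:104031466-104031506) at coding position 708.
PGAM1: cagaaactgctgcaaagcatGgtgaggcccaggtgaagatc
ENSG00000216285: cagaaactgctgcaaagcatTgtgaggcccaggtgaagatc
PGAM1: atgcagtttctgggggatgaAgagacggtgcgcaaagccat
ENSG00000216285: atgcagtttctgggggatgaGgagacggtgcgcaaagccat
Within the coding sequence, a read that covers none of these positions fits the gene and the copy equally, exon junctions included, since a processed copy has no introns.

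*PGAM4*, a retrotransposed relative that lies within the span of *PGK1* on the opposite strand of the X chromosome, was not on the list of members but reached 598 counts and 15.6 RPKM (14.4 to 16.9), above *PGAM2*. It shares 98.3% of 762 aligned coding bases with *PGAM1*, and 30.5% of its own stretches of 75 bases also occur elsewhere, so its count is uncertain for the same reason. *PGAM2*, in contrast, shares 78.4% of the aligned coding bases with *PGAM1* and none of its stretches of 75 bases was found elsewhere. The first 60 coding bases, in exon sequence of *PGAM1* (chr10:97426308-97426367, plus strand), *PGAM4* (chrX:77969579-77969638, minus strand) and *PGAM2* (chr7:44065470-44065529, minus strand), have capitals where a base differs from *PGAM1*.
PGAM1: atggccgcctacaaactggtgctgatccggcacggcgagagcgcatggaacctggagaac
PGAM4: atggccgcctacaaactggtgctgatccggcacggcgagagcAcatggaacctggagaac
PGAM2: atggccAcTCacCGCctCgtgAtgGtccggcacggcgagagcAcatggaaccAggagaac
*PGAM4* differs at 1 of these bases and *PGAM2* at 11. With *PGAM4* and *BPGM*, the mutase of red cells (1.86 RPKM), counted in, *PGAM1* held 87.7% of the RPKM of the step.

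Other members had smaller overlaps of this kind. In *TPI1* 23.7% of the stretches of 75 bases occur elsewhere, most of them in the pseudogene *TPI1P1*, which had 2531 counts, 11.4% of the count of *TPI1*. In *LDHA* the share was 4.75%, and 3 pseudogenes held 2430 counts, 8.53% of its count, of which 2322 were on *LDHAP4*. In *GAPDH* it was 3.80%, and although 65 pseudogenes named after *GAPDH* are in the table, they held 3567 counts together, 3.11% of its count. *ENO1* had 4 named pseudogenes, all at 0 counts. For 21 of the 31 members no stretch was found elsewhere, among them *ALDOA*, *LDHB*, and all 3 phosphofructokinase genes.

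**Figure D3:**
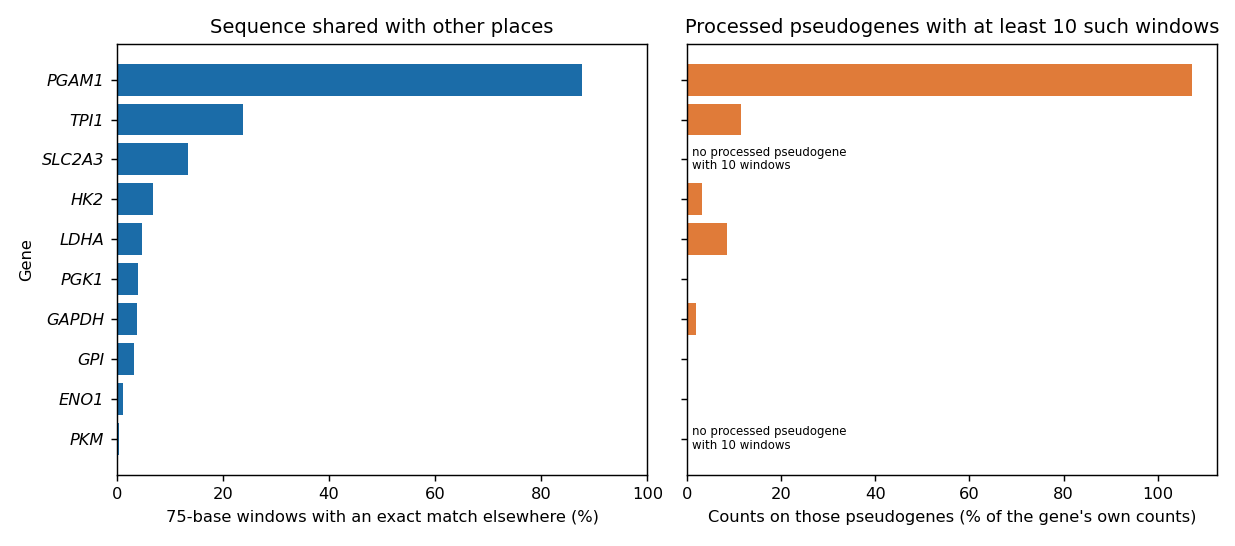
Left, share of the 75-base stretches of the canonical transcript that have an exact match elsewhere in hg38, in percent, for the 10 members with any. Right, counts on the processed pseudogenes that hold at least 10 of these stretches, in percent of the count of the gene. *PGAM1* stands apart on both axes with 87.7% and 107%, followed on the left by *TPI1* with 23.7% and 11.4%.

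Enolase makes phosphoenolpyruvate. *ENO1*, the general form, had 86114 counts and 727 RPKM (722 to 731), and was second to *GAPDH* among the members. *ENO2*, the neuronal form and a clinical marker of neuroendocrine tumours, had 1686 counts and 17.3 RPKM (16.5 to 18.2). *ENO3*, the muscle form, had 126 counts and 1.29 RPKM (1.09 to 1.54). *ENO1* held 97.9% of the counts (97.8 to 98.0%) and 97.5% of the RPKM, and *ENO2*, although only 2.33% of the RPKM of its step, was at a level whose interval overlapped that of *HK1*. The first 60 coding bases of *ENO1* (chr1:8874849-8874908, minus strand), *ENO2* (chr12:6915833-6915892, plus strand) and *ENO3* (chr17:4951830-4951889, plus strand) are given with capitals where they differ from *ENO1*, to show how far apart the reads of the tissue forms are.
ENO1: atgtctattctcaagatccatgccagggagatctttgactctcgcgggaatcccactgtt
ENO2: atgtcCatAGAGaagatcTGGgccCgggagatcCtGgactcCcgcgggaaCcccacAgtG
ENO3: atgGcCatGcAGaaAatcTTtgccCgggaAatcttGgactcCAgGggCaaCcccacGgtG
In this stretch *ENO2* differs at 15 and *ENO3* at 18 bases. Over the whole coding sequence *ENO1* is identical to *ENO2* at 75.9% and to *ENO3* at 77.0% of the aligned bases, and no stretch of 75 bases of *ENO2* or *ENO3* was found elsewhere. *ENO4*, a further enolase gene, was listed at 0.

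Pyruvate kinase makes the second ATP of the pathway. *PKM* had 56888 counts and 292 RPKM (290 to 295), and *PKLR*, the gene of the liver and red cell forms, had 0 counts, for which the limit of 3 counts is a share of 0.00527% of the counts of the step. Against this limit *PKM* was at least 7008-fold higher per length. The M1 and M2 forms of pyruvate kinase arise from *PKM* by alternative splicing of mutually exclusive exons and cannot be separated in counts per gene.

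Lactate dehydrogenase reduces pyruvate to lactate and oxidizes it back, and its tetramers are built from M subunits, made by *LDHA*, and H subunits, made by *LDHB*. *LDHB* had 33554 counts and 495 RPKM (490 to 500), and *LDHA* had 28501 counts and 208 RPKM (206 to 211). *LDHC*, the testis form, had 12 counts and 0.253 RPKM (0.145 to 0.442). The share of *LDHB* was 54.1% of the counts (53.7 to 54.4%) and 70.4% of the RPKM, and that of *LDHA* 45.9% and 29.6%. The larger share by RPKM comes from length, since the merged exons of *LDHA* sum to 6026 bases and those of *LDHB* to 2983. With canonical transcripts (2241 and 1303 bases) *LDHB* held 66.9%, and with coding lengths, which are almost equal, 53.9%. *LDHB* was thus the leading isoform by every measure tried, but the size of its lead over *LDHA* depended on the length. Among the further genes, *LDHAL6B* was at 0.781 RPKM (0.5505 to 1.11). *LDHD*, which acts on the D form of lactate, was at 0.539 RPKM (0.375 to 0.774). Both values were below the limit of expression and above *LDHC*, but the interval of *LDHAL6B* spanned the limit. The interval of *LDHD* overlapped that of *LDHC*.

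The lactate dehydrogenases were among the less similar isoforms in sequence. The coding sequence of *LDHB* is identical to that of *LDHA* at 70.0% and to that of *LDHC* at 68.6% of the aligned bases. The first 60 coding bases of *LDHB* (chr12:21654612-21654671, minus strand), *LDHA* (chr11:18396843-18396902, plus strand) and *LDHC* (chr11:18412718-18412777, plus strand) differ from *LDHB* where capitals are printed.
LDHB: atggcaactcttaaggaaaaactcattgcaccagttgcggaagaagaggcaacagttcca
LDHA: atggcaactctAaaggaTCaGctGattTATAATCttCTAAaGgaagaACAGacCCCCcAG
LDHC: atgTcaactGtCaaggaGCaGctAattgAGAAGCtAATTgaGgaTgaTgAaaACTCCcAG
*LDHA* differs at 27 and *LDHC* at 28 of these bases. The longest identical run between *LDHB* and either of them is 17 bases, so that no read of 75 bases from its coding sequence fits either of theirs without a mismatch.

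Lactate leaves and enters cells through monocarboxylate transporters. *SLC16A3*, which encodes MCT4, the form of strongly glycolytic cells, had 7682 counts and 36.6 RPKM (35.8 to 37.4). *SLC16A1*, which encodes MCT1, had 2134 counts and 14.8 RPKM (14.2 to 15.4). *SLC16A3* held 78.3% of the counts (77.4 to 79.1%) and 71.2% of the RPKM, and 83.9% with canonical transcript lengths. *BSG*, whose product basigin carries both transporters to the cell surface, was the highest of the 6 regulators and partners examined, at 168 RPKM. *SLC16A7* was at 0.462 RPKM and *SLC16A8* was listed at 0.

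The PFKFB enzymes make and break fructose-2,6-bisphosphate, the strongest activator of phosphofructokinase. *PFKFB3*, the form with the highest kinase activity relative to its phosphatase activity, led with 930 counts and 6.70 RPKM (6.28 to 7.14). *PFKFB2*, the heart form, had 411 counts and 1.78 RPKM (1.61 to 1.96), and *PFKFB4* had 85 counts and 0.613 RPKM (0.495 to 0.757). *PFKFB3* held 65.2% of the counts (62.7 to 67.6%) and 73.7% of the RPKM. *PFKFB4* lay below the limit of expression with merged exons and above it, at 1.07 RPKM, with the canonical transcript. *TIGAR*, a phosphatase of the same substrate and a known p53 target, was at 1.98 RPKM (1.80 to 2.17), with an interval that overlapped that of *PFKFB2*, and *PFKFB1* had 1 count.

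**Figure D4:**
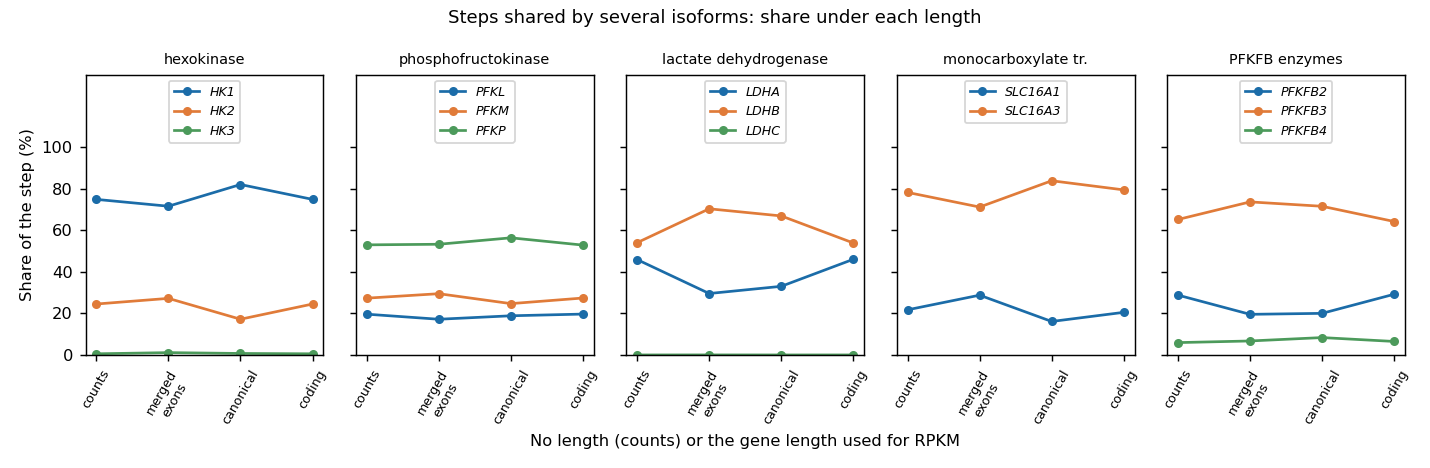
Share of the step, in percent, held by each isoform of the 5 divided steps, by counts and by RPKM with the length of merged exons, the canonical transcript or the coding sequence. The lines of a step do not cross in any panel. The share of *LDHB* lies between 53.9% and 70.4% and that of *PFKP* between 52.9% and 56.4%.

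Sorted by RPKM with merged exon lengths, the members formed an order in which 20 of the 30 neighbouring pairs had intervals that did not overlap. The order began with *GAPDH*, *ENO1*, *LDHB*, *ALDOA*, *TPI1*, *PKM* and *LDHA*, all 7 of them within the top 1% of protein-coding genes. By these intervals *PGAM1* and *PGK1*, at 131.9 and 131.1 RPKM, could not be ordered, nor could *ENO2* and *HK1*, or *SLC2A1*, *PFKFB3* and *HK2* as neighbours. The intervals do not cover the choice of length, on which the order also depends. With canonical transcript lengths *PKM* (1086 RPKM) came above *TPI1* (722 RPKM), and *PFKP* (178 RPKM) above *GPI* (162 RPKM). With the same lengths *PGAM1* was at 186 RPKM and *PGK1* at 148 RPKM. The place of *PGAM1* is uncertain beyond its counting interval, since its pseudogene copies held 107% of its own count. At the low end the intervals of *ENO3*, *PGAM2* and *PFKFB4* overlapped from one to the next, as did those of *HK3* and *LDHC* and those of *SLC2A3* and *PGK2*. *GAPDHS* and *PKLR*, both at 0 counts, could not be ordered, and the interval of *PGK2* overlapped that of *GAPDHS*. The 3 forms known from testis or sperm, *GAPDHS*, *PGK2* and *LDHC*, had 0, 1 and 12 counts. *PKLR*, of liver and red cells, had 0 counts, and the muscle forms *PGAM2* and *ENO3* had 20 and 126 counts, whereas *PFKM*, also named for muscle, had 5483.

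The members are spread over 15 chromosomes, but 6 of them, *SLC2A3*, *PFKM*, *TPI1*, *GAPDH*, *ENO2* and *LDHB*, lie on chromosome 12 and held 177762 counts, 38.5% of those of all members. *LDHA* and *LDHC* are neighbours on the plus strand of chromosome 11, from 18394560 to 18408425 and from 18412318 to 18452063, with 28501 and 12 counts. Some members share exon bases with another gene on the same strand, which strand-specific counting cannot separate. *PGK1* shares 97 bases with *ATP7A* (101 counts), *PFKFB4* shares 298 bases with *UCN2* (11 counts), and the same-strand partners of *GPI* and *PFKP* were at 0 counts.

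Promoters from RefSeq in hg38, 250 bases before to 50 bases after the start, were available for 28 of the 31 members. A single start was used per gene, and it need not be that of the canonical transcript. The window of *PGAM1* (chr10:97427568-97427867, plus strand) lies downstream of its start codon at 97426308. What is found in such a window does not describe the promoter of the canonical transcript. The letters ACGTG, the core of the element that hypoxia-inducible factors recognise, occurred on either strand in 10 of the 28 (35.7%) and in 21.6% of all 27305 promoters. They were found in 4 of the 14 leading and 6 of the 14 other isoforms with a promoter, including *PKLR*, which was at 0 counts. GCGTG, the other common form of the core, occurred in 15 of the 28 (53.6%) and in 36.3% of all promoters. Such a match is only a run of letters, and the binding of a factor was not measured. For illustration, windows of 25 bases are given for 4 of the 10 members, with the letters ACGTG in capitals. They lie at chr12:6535174-6535198 for *GAPDH*, chrX:78104036-78104060 for *PGK1*, chr11:18394369-18394393 and chr11:18394467-18394491 for *LDHA*, and chr12:6914452-6914476 for *ENO2*, all on the plus strand. Those of *GAPDH*, *PGK1* and *ENO2* lie inside the annotated span of the gene, which begins at 6534512, 77910739 and 6913745. They are upstream of the start used here, which is not the first base of the gene.
GAPDH: ctgcggggtcACGTGtcgcagagga
PGK1: ggcgtgccggACGTGacaaacggaa
LDHA: ctcccagcgcACGTGgagcagtctg
LDHA: cccgactcacACGTGggttcccgca
ENO2: ccgcgctcgtACGTGcgcctccgcc
The ratio of observed to expected CpG had a median of 0.782 in the promoters of the 22 expressed members, from 0.0617 in *HK1* to 1.03, and of 0.527 in those of the 6 others, against 0.580 in all promoters. The ranges of the members overlapped.

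The pathways that branch from glycolysis and the 6 regulators and partners were measured from lists of 47 genes, of which 36 were expressed, against 44.6% of all protein-coding genes. Of the regulators and partners alone, 5 of 6 were expressed. All 7 enzymes of the pentose phosphate pathway were expressed, led by *TKT*, transketolase, at 84.1 RPKM, as were all 3 of serine synthesis, led by *PSAT1*, the phosphoserine aminotransferase, at 60.1 RPKM. The malate-aspartate shuttle, which carries the electrons of NADH into mitochondria, had 6 of 7 expressed, with *MDH2*, the mitochondrial malate dehydrogenase, at 122 RPKM, and the glycerol-3-phosphate shuttle 2 of 3, with *GPD2*, its mitochondrial dehydrogenase, at 15.4 RPKM. Of the genes for pyruvate entry into mitochondria 7 of 8 were expressed, led by *DLD*, the dehydrogenase shared with other complexes, at 30.96 RPKM. Of the gluconeogenesis genes 3 of 7 were expressed, a share near that of all protein-coding genes, with *G6PC3*, a widely expressed glucose-6-phosphatase, highest at 5.51 RPKM and *FBP1*, *FBP2* and *PCK1* at 0. Of the 6 kinases and phosphatases of pyruvate dehydrogenase 3 were expressed with merged exon lengths. *PDP1*, the phosphatase that switches the complex on, had 29633 counts and 233 RPKM. *PDP2* was at 2.59 RPKM and the highest kinase, *PDK2*, at 3.35 RPKM. *PDK3*, with 113 counts, was at 0.285 RPKM with its merged exons (17456 bases). With its canonical transcript (1741 bases) it was above the limit, at 2.86 RPKM.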

How the data were processed

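Poly(A) RNA from 12 HCT116 samples was sequenced as single reads of 75 bases. The authors' mapping used ContextMap 2.7.9 with BWA and hg38, and their counting per gene and strand used featureCounts with Gencode version 25. The authors deposited raw counts without normalization. All 12 columns were identical and were counted as 1 sample, so no test between treatments was run. Of 58037 identifiers, 56948 matched GENCODE v44, used here in place of version 25, and carried 99.8% of the counts. RPKM values were computed from counts, the column total of 22720718 and merged exon lengths of GENCODE v44. Exons of v44 that are absent from version 25 would lengthen a gene without adding counts, which was not checked. Intervals are 95% Wilson intervals. The limit for a count of 0 was set at 3 counts, or 0.132 CPM, and the Wilson interval of such a count reaches higher, to 0.169 CPM. Stretches of 75 bases from each canonical transcript were searched without mismatches in 25 chromosomes of hg38 and in GENCODE v44 transcripts. Coding sequences were aligned globally with Biopython 1.88. The search was tested on simulated sequence. All 31 members are named, with the highest gene of each further list and any further isoform at or above a member of its step, except for genes that are not reported here. The other markers and genes named were chosen after their values were seen. The members and lists were chosen with earlier results of these data known.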

Additional observations from a re-analysis of the deposited data

How the results depend on the processing

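The leading isoform was the same in all 12 steps under each of the 6 alternatives, of which the one with window-matched pseudogene copies was chosen after seeing the data. The median leading share was 97.7% of the RPKM of a step. It was 98.4% with canonical transcript lengths, 98.1% with coding lengths, 98.2% by raw counts and 79.2% with the further isoforms counted in, and it was 97.7% with named pseudogenes or with the copies added to their parent gene. Of the 72 shares of single steps under these alternatives, 45 stayed within their counting interval and 27 moved out of it. The number of expressed members was 24 by CPM of at least 1, 25 with canonical lengths, 28 with at least 10 counts and 29 with at least 1 count, against 24. The members' share of all counts, 2.03%, was 2.24% of the counts of protein-coding genes, 2.27% without the mitochondrial genome, 2.07% with named pseudogenes added and 2.10% with the copies added. The median percentile of 89.1 became 89.6 with canonical lengths and 82.6 among protein-coding genes with at least 10 counts. No paired analysis was possible because the columns are identical, and for the same reason the other tests between treatments and the leaving out of samples were not run. Depth limits the 8 members under 100 counts most.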
